A study of Rattus norvegicus with 3 samples.

Results

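AP-1 is a family of paired transcription factors built from Jun and Fos proteins and their relatives, and it was examined here together with other immediate early transcription factors in cultured rat Schwann cell precursors. The set was defined by a list of 6 rat Ensembl gene identifiers, meant as Jun, Fos, Junb, Egr1, Atf3 and Myc. Of these, 5 are carried by the array, each by 1 probe among 20174 gene probes, and the identifier meant as Junb (ENSRNOG00000042838) is not among them. Gene names follow that list. The array names its probes only by identifier, and the RefSeq gene table used beside it holds all 6 symbols but no Ensembl identifiers, so the pairing of identifier and symbol was not checked.

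The study profiled 3 samples of these cells, grown in modified Sato medium under culture conditions labelled normal, with 1 single-colour 3D-Gene array per sample. Total RNA was amplified to amino allyl aRNA and coupled to Cy5. The samples form 1 group, so no condition is compared, and the labels give no strain, age, sex or separate cultures, and their spread may therefore be technical. The cell type label and the source name both say Schwann cell precursors, whereas the treatment text speaks of oligodendrocyte precursors; lineage markers were not placed on the array here, since they too would need symbols.

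Immediate early genes are those that growth factors, stress or injury switch on within minutes without new protein synthesis, and most of their mRNAs are short-lived. Jun proteins pair with Fos or ATF proteins through a leucine zipper, and the pairs bind AP-1 or cAMP response elements in DNA. In the Schwann cell lineage, Jun is known from mouse work to restrain myelin genes and to drive the repair state that follows nerve injury. Egr1 is a zinc finger factor with its own GC-rich site, and Myc pairs with Max to promote growth and division.

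Among the 5 genes on the array, RefSeq promoter sequence was at hand for Egr1, a textbook target of serum response factor, and it is printed to show the elements for which the gene is known. The stretch covers the 250 bases before the annotated start, GRCr8 chr18:26736828-26737077, plus strand, 5′ to 3′, with CArG boxes and cAMP response element half-sites in capitals.
Egr1: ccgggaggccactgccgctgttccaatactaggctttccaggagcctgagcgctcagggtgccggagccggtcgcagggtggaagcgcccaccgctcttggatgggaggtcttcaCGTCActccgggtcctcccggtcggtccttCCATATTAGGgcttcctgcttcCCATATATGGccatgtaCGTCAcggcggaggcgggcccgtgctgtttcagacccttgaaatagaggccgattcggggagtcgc
The CArG box is the sequence that serum response factor binds, and 2 copies, CCATATTAGG and CCATATATGG, begin 105 and 83 bases before the start. Of 33469 rat promoter windows of the same length, 501 (1.50%) hold at least 1 CArG box and 7 (0.0209%) hold at least 2. The half-site TGACG, searched on both strands, occurs 2 times, while 18.2% of windows hold at least 1 and 3.98% at least 2. Neither the AP-1 site TGANTCA, held by 6.34% of windows on either strand, nor the EGR site GCGNGGGCG, held by 4.29%, is in these letters. These matches describe the sequence only.

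All 5 probes read above blank spots in every sample. Each exceeded the blank threshold (mean plus 2 SD of the array's trimmed blank spots) on all 3 arrays, as did 80.4% of all gene probes, and every scanner gain flag of their spots was passed. Spot medians ran from 4.09 times the blank mean, for Myc in replicate 3, to 18.8 times, for Egr1 in replicate 1. By mean normalized log2 intensity over the arrays, the 5 probes lay between percentile 80.0 and percentile 92.2 of the 20174 gene probes, with a median percentile of 84.7. The median of the set was 84.4, 87.8 and 85.8 in replicates 1, 2 and 3. Brightness depends on the probe as well as on the RNA, so these ranks place each probe on the array and do not order the genes by abundance.

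**Figure D1:**
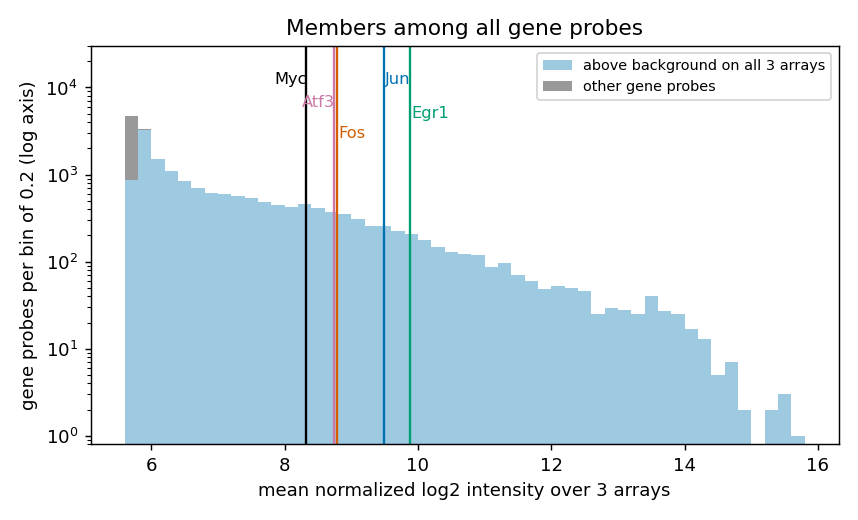
Distribution of mean normalized log2 intensity over 3 arrays for all 20174 gene probes (x axis, log2 units; y axis, probes per bin of 0.2, log axis), with a vertical line for each of the 5 members. The members lie in the bright shoulder, between percentiles 80.0 and 92.2, well short of the brightest probes.

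Jun (ENSRNOG00000026293), the AP-1 subunit best known from Schwann cell injury, had spot medians of 776, 607 and 765 units in replicates 1, 2 and 3. On the normalized log2 scale these were 9.42, 9.21 and 9.84, with a mean of 9.49 ± 0.32 (SD, n = 3), which ranks 2016th from the brightest gene probe. Replicate 3 was highest and replicate 2 lowest, 0.63 apart on the log2 scale, or 1.54-fold. A difference of at least this size between replicates 2 and 3 occurred in 4.03% of the 16229 gene probes detected on every array. That pair is the widest for Jun, while the other probes were scored on the same pair and not on their own widest. Among the 1000 probes nearest in level, the SD of Jun stood at percentile 84.7.

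Fos (ENSRNOG00000008015), the usual partner of Jun in AP-1, had spot medians of 480, 591 and 313 units. The normalized log2 values were 8.72, 9.17 and 8.47, with a mean of 8.78 ± 0.36 (SD, n = 3) and rank 3095. Here replicate 2 was highest and replicate 3 lowest, the reverse of Jun, and the gap of 0.70 on the log2 scale (1.63-fold) was the widest of the 5 in these values. Differences this large between these replicates, again the widest pair of the member only, were found in 2.58% of detected probes. Among the 1000 probes nearest in level, the SD of Fos stood at percentile 91.2.

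Atf3 (ENSRNOG00000003745), a stress-induced member of the ATF family that can pair with Jun, gave 494, 384 and 421 units. Its log2 values of 8.76, 8.55 and 8.91 had a mean of 8.74 ± 0.18 (SD, n = 3), rank 3169. The order of arrays was that of Jun here, though not with median scaling or with local background subtracted. Replicate 3 was above replicate 2, its widest pair, by 0.36 on the log2 scale, a difference reached by 15.2% of detected probes. The SD of Atf3 stood at percentile 56.0 among the 1000 probes nearest in level.

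Egr1 (ENSRNOG00000019422) gave 1040, 1051 and 762 units, and its log2 values of 9.85, 9.95 and 9.83 averaged 9.88 ± 0.062 (SD, n = 3), rank 1577. It had the order of Fos with a narrow range of 0.12 on the log2 scale, and its SD stood at percentile 6.6 among the 1000 probes nearest to it in level. This narrowness depended on the setting: the range was 0.41 with median scaling, 0.62 in the authors' values and 1.42 with local background subtracted. One of the 8 spots around the Egr1 spot, in the same printed column, was very bright, with 21491, 27446 and 15680 units in replicates 1, 2 and 3, which is also the order of Egr1. Gene spots beside a spot above 15000 units were brighter than gene spots at large, with median readings of 113, 102 and 96.5 units in replicates 1, 2 and 3 against 84.7, 82.5 and 85.5. Readings at or above that of Egr1 were found in 9.93%, 8.95% and 8.17% of them, against 7.94%, 7.46% and 8.06% of all gene spots. Whether that neighbour adds to the Egr1 reading was not tested.

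Myc (ENSRNOG00000004500), a growth regulator outside the AP-1 family, gave 396, 331 and 261 units. Its log2 values of 8.43, 8.34 and 8.18 had a mean of 8.32 ± 0.13 (SD, n = 3), rank 4027. Replicate 1 was highest and replicate 3 lowest, 0.25 apart on the log2 scale.

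**Figure D2:**
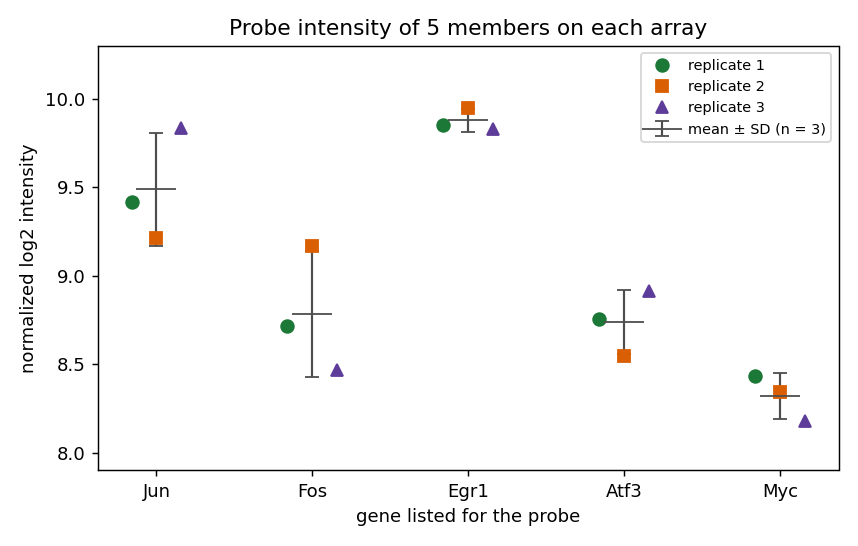
Normalized log2 intensity (y axis) of the 5 member probes (x axis) in replicates 1, 2 and 3, with the mean and SD over the 3 samples. Jun and Atf3 are highest in replicate 3 and lowest in replicate 2, Fos and Egr1 the other way round, and Egr1 spans 0.12 against 0.70 for Fos; with local background subtracted these orders do not hold.

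No member, and few detected probes, passed a test for variation beyond that of other genes of its level. In limma's variance test, which sets the variance of a probe over the 3 samples against that of probes of similar intensity, 0 of the 5 passed at a Benjamini-Hochberg adjusted p of 0.05 and 0 had an unadjusted p under 0.05, which 931 of the 16229 detected probes had. Adjusted values ran from 0.90 for Fos to 0.997 for Egr1 by limma, and 0.0123% of the 16229 detected probes passed. The lowest unadjusted values by limma were 0.087 for Fos and 0.16 for Jun. Likewise 0 of 5 had a 2-fold range over the arrays, which 0.622% of detected probes had. With shares this low, counts of 0 do not set the members apart. Among the 1000 probes nearest in level, the SD of Fos stood at percentile 91.2 and that of Jun at 84.7, while Atf3 stood at 56.0 and Myc at 35.8.

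The 5 genes did not vary as a block over the arrays. Replicate 2 was highest and replicate 3 lowest for Fos and Egr1, an order shared by 21.4% of detected probes. The opposite order, replicate 3 highest and replicate 2 lowest, held for Jun and Atf3 and for 18.8% of detected probes, but not in every setting: Atf3 was highest in replicate 1 with median scaling, and both were lowest in replicate 1 in the authors' values. With local background subtracted, Jun was highest in replicate 2 and tied at 7.74 in replicates 1 and 3. Atf3 was then highest in replicate 1 and lowest in replicate 3, and Egr1 highest in replicate 1 and lowest in replicate 2. Myc alone had replicate 1 highest and replicate 3 lowest, as 11.1% of detected probes did. With 3 arrays no correlation between genes was computed. The 24 spots of each positive control had log2 SDs within 1 array from 0.085 (replicate 2) to 0.21 (replicate 3), before normalization. Over the 3 arrays, the normalized values of Egr1, Myc and Atf3 had SDs of 0.062, 0.13 and 0.18 and ranges of 0.12, 0.25 and 0.36. The control SDs are scatter within an array, so they do not measure spread between arrays. Between replicates 2 and 3, Jun and Fos moved apart by 1.33 on the log2 scale, a difference of differences that does not depend on any factor applied to a whole array and that was chosen after its values were seen. It fell to 0.080 with local background subtracted.

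**Figure D3:**
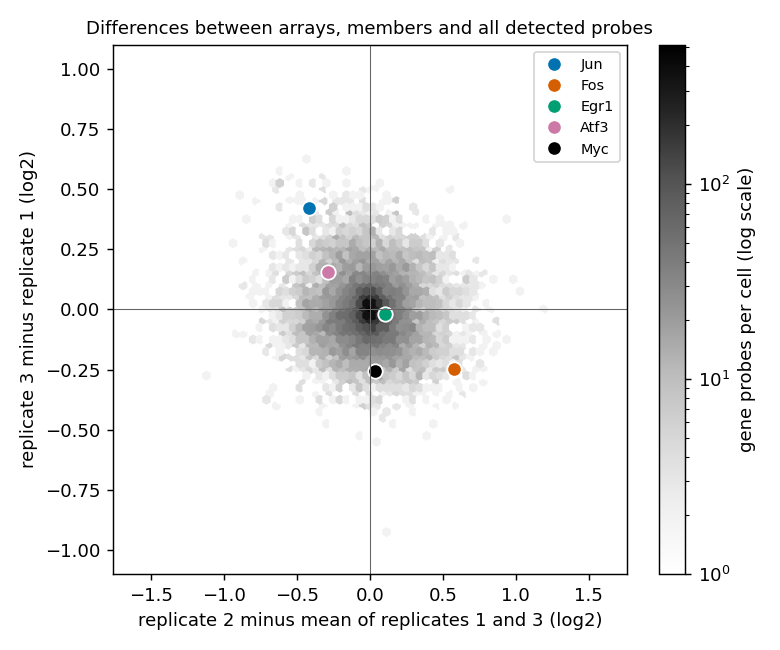
Each detected gene probe placed by replicate 2 minus the mean of replicates 1 and 3 (x axis, log2) and replicate 3 minus replicate 1 (y axis, log2), shaded by probes per cell on a log scale, with the 5 members as coloured points. Jun and Fos lie on opposite sides of the centre, at -0.42 and 0.58 on the x axis, and Egr1 lies near it.

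Many probes shared the profile of Fos, which had the widest range of the 5 in these values, though not with local background subtracted. Over the 3 arrays, 134 of the 16228 other detected probes lay within a Euclidean distance of 0.1 of its deviations from the mean. The closest were ENSRNOG00000011279, at a distance of 0.0057 with log2 values of 9.43, 9.89 and 9.18, and ENSRNOG00000025553, at 0.010 with 10.45, 10.92 and 10.22. So short a profile is matched by many probes at once.

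Between replicates 2 and 3, Jun and Fos also moved in opposite directions in the authors' normalized values, though Atf3 flattened there. Jun read 336, 361 and 427, with replicate 3 above replicate 2 by 0.24 on the log2 scale. Fos read 198, 350 and 151, with a difference of -1.21 between the same replicates, a range of 2.31-fold where 16.3% of all detected probes reached 2-fold; the other 4 did not. Egr1 read 460, 652 and 425 and Myc 159, 180 and 120, each highest in replicate 2. Atf3 read 204, 215 and 218, giving a range of 1.06-fold. These values are scaled so that the listed probes of each array have a median of 25, and with that scaling all detected probes shifted by a median of -0.40 on the log2 scale from replicate 2 to replicate 3. Relative to that shift Jun and Atf3 were higher in replicate 3, and Fos, Egr1 and Myc lower.

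**Figure D4:**
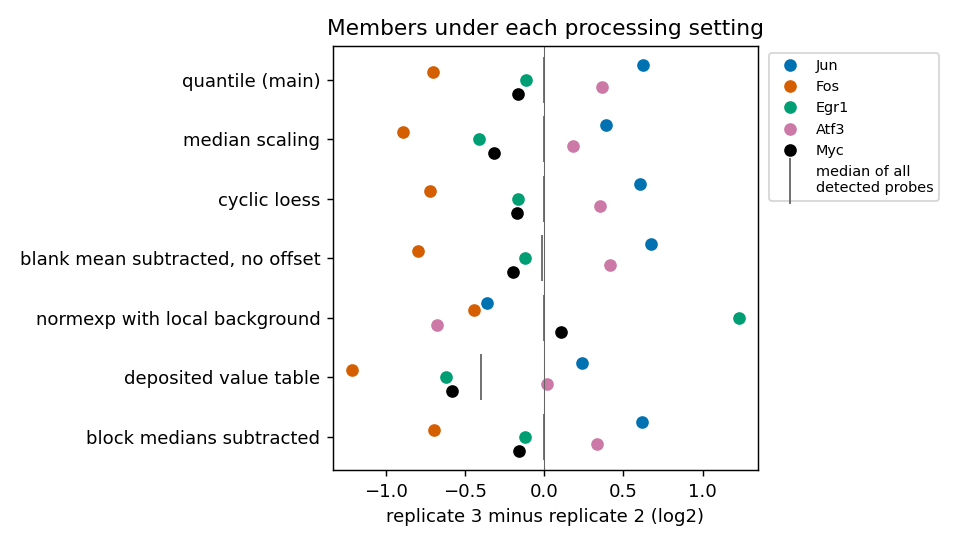
Replicate 3 minus replicate 2 on the log2 scale (x axis) for the 5 members under 7 processing settings (y axis), with a tick for the median of all detected probes. Jun lies right of zero and Fos left of it in every setting except normexp with local background, where both lie to the left, at -0.36 and -0.44.

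Local background, the intensity the scanner reported around each spot, was high and uneven at these spots, and subtracting it turned several orders. Beside Jun it was 686, 272 and 621 units in replicates 1, 2 and 3, or 88.4%, 44.7% and 81.3% of the spot itself. Beside Fos it was 407, 143 and 132 units (84.9%, 24.1% and 42.3%). At Atf3 the share was 49.6%, 18.7% and 76.8%, and at Egr1 57.4%, 65.3% and 27.2%. The trimmed blank means were far lower, at 55.4, 56.9 and 63.8 units in replicates 1, 2 and 3. Beside Atf3 the local background was 245, 71.7 and 324 units, while the brightest of the 8 adjacent spots read 65.8, 71.6 and 73.0. In replicates 1 and 3 it was thus above every adjacent spot. What the local value measures at these spots was not tested. Gene spots of 250 to 1100 units, the range of the members, had median shares of 75.8%, 27.5% and 49.0%, so the arrays differed in this value as a whole. With normexp on the local background, Jun became highest in replicate 2 and Egr1 lowest there, and the gap between Jun and Fos shrank from 1.33 to 0.080. In that setting Egr1 and Atf3 reached 2.68-fold and 2.91-fold ranges, where 12.8% of all detected probes reached at least 2-fold. The order of replicates 2 and 3 given above for each gene therefore holds for the 6 settings without local background, while the place of replicate 1 also changed in some of them.

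**Figure D5:**
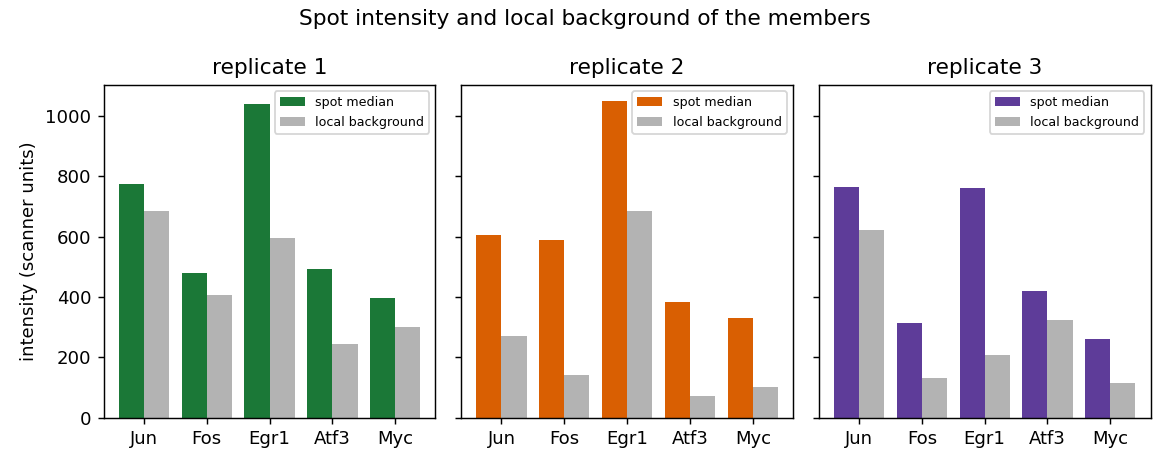
Spot median (coloured bars) and local background (grey bars) of the 5 member spots, in scanner units (y axis, from 0), with 1 panel per replicate. In replicate 1 the grey bars reach 88.4% of the spot for Jun and 84.9% for Fos, and in replicate 2 they are 44.7% and 24.1%.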

How the data were processed

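The deposited scanner files list, per the file headers, a median for every spot and a median for its local background, as linear intensity in the Cy5 channel with nothing subtracted. The deposited value table holds normalized intensity: in each array it equalled the spot median minus the trimmed blank mean, times 1 factor (residuals up to 5.2e-06). The software behind either is not given in the sources used here. A probe counted as detected if its spot median lay over the blank threshold (mean plus 2 SD of the blank spots, trimmed by 5% at each end) and no gain flag had failed; this gave exactly the 17209, 17990 and 16944 gene probes listed in the table. Spot medians were corrected with normexp (offset 50, no local background), quantile normalized over gene probes and taken to log2. The offset shrinks differences of dim probes. Variance was tested with limma 3.58.1 in R 4.3.3 (intercept-only model, robust prior by level, Benjamini-Hochberg adjustment over 16229 detected probes), after a check on simulated arrays. Figures used matplotlib 3.10.9 in Python 3.11.15; promoters are from RefSeq (GRCr8). The members and lists were chosen with earlier results of these data known. By rule, all members on the array were named, with the 2 probes most like the widest. A planned list of other immediate early genes and lists of cell type markers were not used, since 0 of 20174 array identifiers matched the gene table. The number of arrays limits precision.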

Additional observations from a re-analysis of the deposited data

How the results depend on the processing

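All 5 members stayed above background with the 3 other thresholds and without each replicate. Most gene probes did so too in each of these cases, as 80.4% did with the main threshold. This count therefore does not set the members apart. The median percentile (84.7) was 80.9 in the value table, where only listed probes are ranked, and 85.0 to 86.1 without a replicate. The number with a 2-fold range (0) was 2 with local background and 1 in the value table, where 12.8% and 16.3% of all detected probes had one, and stayed 0 in every other setting, including without each replicate. By limma's variance test 0 members passed in any setting. A highest array was shared by 3 members with local background (replicate 1) and in the value table (replicate 2), against 2 otherwise. Replicate 2 was highest for 71.0% of all detected probes in the value table. In the main setting it was highest for 39.9% of them, and for Fos and Egr1 among the members. Beside those shares, the counts for replicate 2 in the value table and in the main setting do not set the members apart. The share of detected probes highest in replicate 1 with local background was not counted, so nothing is read from that count of 3. Replicate 2 minus the mean of the others turned with local background for Jun (0.36, from -0.42), Egr1 (-1.32, from 0.11) and Myc (-0.12, from 0.036), and in the value table for Atf3 (0.025, from -0.29); the cause was not tested, though the table's scaling raises replicate 2 as a whole. With median scaling Atf3 was highest in replicate 1, and with block medians subtracted Egr1 was lowest there. No paired analysis was possible because there is only 1 group of samples. The alternatives for the most frequent highest array were not run without single replicates.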
